A study of Bos taurus with 5 samples.

Results

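The genes that cut proteins into peptides and load those peptides onto class I molecules were examined in 5 cattle (Bos taurus) RNA sequencing libraries. The set held 10 genes out of the 27607 in the deposited table, chosen by name: B2M, PSMB8, PSMB9, PSMB10, PSME1, PSME2, TAP1, TAP2, TAPBP and ERAP1. Each name matched 1 entry. The libraries are labelled limb, heart, lung, skin and brain, 1 library for each tissue, and the labels give no breed, age, sex, treatment or number of animals. Per the labels' protocols, cells were lysed and their RNA pre-amplified on a Fluidigm C1 microfluidic chip, an instrument built for single cells, and the number of cells per library is not known. With no replicates, a difference below describes these libraries only, has no error and no p-value, and no neighbours in an order of levels can be said to differ beyond a spread. Fewer cells of a type and less RNA per cell cannot be told apart in such libraries.

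Class I molecules show short peptides from inside the cell to cytotoxic T cells. The proteasome cuts proteins into peptides, a transporter of 2 subunits (TAP1 and TAP2) carries them into the endoplasmic reticulum, the aminopeptidase ERAP1 trims them there, and tapasin (TAPBP) helps place them on a class I heavy chain paired with beta-2-microglobulin (B2M). Interferon-gamma is known to raise most of these genes, and the inducible catalytic subunits PSMB8, PSMB9 and PSMB10 then take the places of PSMB5, PSMB6 and PSMB7 in newly built proteasomes.

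Values were taken as FPKM, a fragment count scaled to transcript length and to the total of mapped fragments, which allows levels of different genes to be set side by side. The unit is not named by the submitters, so comparisons of level between genes depend on this reading. Library totals lay between 1072430 and 1172798 FPKM, and 5109 to 6634 genes were above 0 in a library. The labels were not borne out by defining markers. Under the brain label 0 of 8 neural and glial markers were above 0, and under the lung label 0 of 6 lung epithelial markers. The skin-labelled library had 1 of 6 keratinocyte markers above 0, the heart-labelled 1 of 7 cardiac markers and the limb-labelled 2 of 8 muscle and skeletal markers. The libraries are therefore called by their labels only, and a value "under the brain label" is that of the 1 library so labelled. Markers of the cells best known for presenting antigen were not seen: all 18 macrophage and dendritic cell entries and all 16 lymphocyte entries, PTPRC (CD45, the pan-leukocyte surface protein) and CD3E included, were listed at 0 in every library. Of the fibroblast and matrix markers, 6 or 7 of 11 were above 0 in each library, led by SPARC, VIM, COL1A2 and COL1A1, with a sum between 1965 FPKM under the lung label and 8750 FPKM under the heart label, while DCN, LUM, PDGFRB and THY1 were at 0 in all 5. Of the 9 epithelial markers at most 2 (CDH1 and KRT5) were above 0, under the lung label, and of the 8 endothelial markers 1 (FLT1). The part of such cells in the levels below was not tested.

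Of the 50 values of the set (10 genes in 5 libraries), 45 were above 0, and 6 genes were at 10 FPKM or more in all 5 libraries. The lung- and limb-labelled libraries had all 10 genes above 0, the brain- and heart-labelled libraries 9 and the skin-labelled library 7. Of all genes listed, 18.5% to 24.0% were above 0 in a library. The levels differed by role, with overlaps. B2M was at 1955 FPKM or more, the activator genes at 419 to 1409 FPKM, the inducible catalytic subunits at 80.5 to 494 FPKM apart from 1 zero, TAPBP at 12.9 to 81.5 FPKM, and the transporter and the trimming enzyme at 21.3 FPKM or below.

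**Figure D1:**
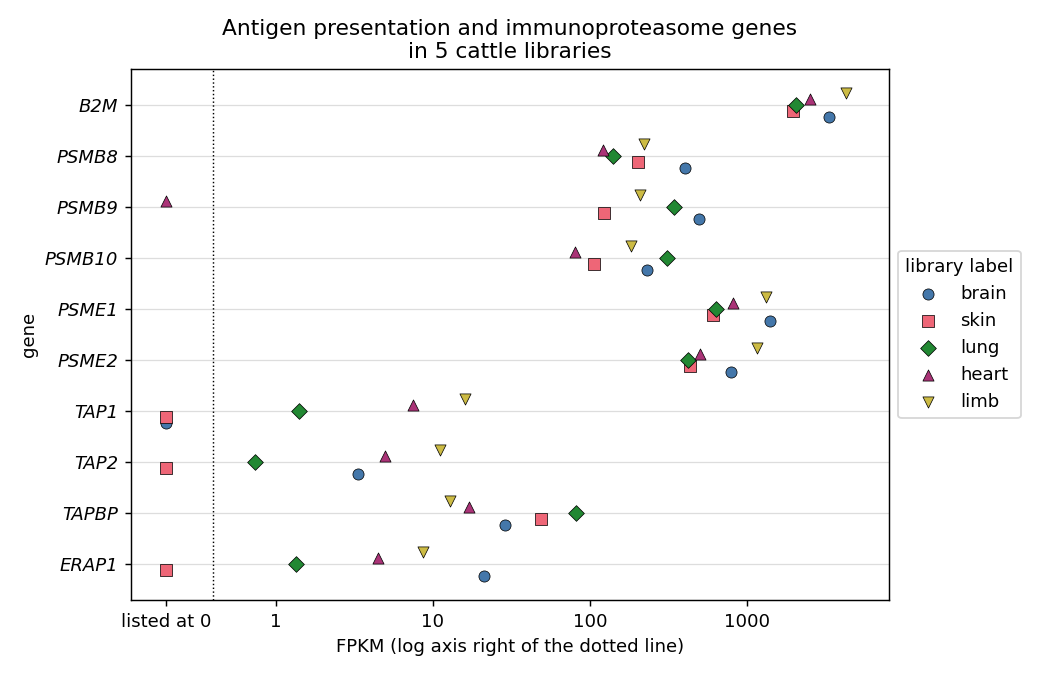
FPKM of the 10 genes (rows) in the 5 libraries (symbols by label), on a log axis, with values listed at 0 drawn left of the dotted line. B2M lies at 1955 to 4262 FPKM, the transporter genes at or below 16.1 FPKM, and PSMB9 is listed at 0 under the heart label only.

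B2M, the light chain shared by all class I molecules, was at 3299 FPKM under the brain label, 1955 FPKM under the skin label, 2042 FPKM under the lung label, 2502 FPKM under the heart label and 4262 FPKM under the limb label. The limb-labelled library was highest and the skin-labelled lowest, a ratio of 2.18. B2M was among the abundant genes of each library, from the 35th place under the limb label to the 112th under the skin label. Its range of 1.12 on the log2(FPKM + 1) scale was near the median of 0.98 among the 200 genes closest to it in mean level.

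The proteasome activator is a ring of PSME1 and PSME2 subunits that caps the 20S core and opens it. PSME1 was at 1409 FPKM under the brain label, 605 FPKM under the skin label, 637 FPKM under the lung label, 813 FPKM under the heart label and 1322 FPKM under the limb label. PSME2 stood at 796 FPKM under the brain label, 435 FPKM under the skin label, 419 FPKM under the lung label, 499 FPKM under the heart label and 1150 FPKM under the limb label. Both genes were highest in the brain- and limb-labelled libraries, intermediate under the heart label and lowest in the skin- and lung-labelled ones. The highest value was 2.33 times the lowest for PSME1 and 2.75 times for PSME2. The level of PSME1 per level of PSME2 varied little, from 1.15 under the limb label to 1.77 under the brain label. In the RefSeq annotation of a later assembly (ARS-UCD2.0) the 2 genes are separated only by EMC9, and PSME1 overlaps EMC9 at its edge. EMC9 was listed at 74.2 FPKM under the skin label and at 0 in the other 4.

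The inducible catalytic subunits each had their own order of libraries. PSMB8, which replaces PSMB5, was at 403 FPKM under the brain label, 204 FPKM under the skin label, 140 FPKM under the lung label, 120 FPKM under the heart label and 221 FPKM under the limb label. The brain-labelled library was 3.35 times the heart-labelled one. PSMB10, which replaces PSMB7, was at 229 FPKM under the brain label, 107 FPKM under the skin label, 310 FPKM under the lung label, 80.5 FPKM under the heart label and 184 FPKM under the limb label. It was highest under the lung label, where PSMB8 was second lowest, and its highest value was 3.85 times its lowest. On the log2(FPKM + 1) scale PSMB8 had a range of 1.74 and PSMB10 of 1.93, close to the medians of 1.77 and 1.94 among the 200 genes nearest to each in mean level. In the ARS-UCD2.0 annotation PSMB10 overlaps LCAT, a plasma cholesterol-esterifying enzyme, which was listed at 0 under the brain label and at 15.99 to 49.5 FPKM in the other libraries, highest under the lung label. Whether the counting used strand is not stated, so reads of this overlap cannot be assigned.

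PSMB9, which replaces PSMB6, was at 494 FPKM under the brain label, 123.2 FPKM under the skin label, 341 FPKM under the lung label and 208 FPKM under the limb label, and was listed at 0 under the heart label. The 4 libraries above 0 spanned a ratio of 4.01. Its range on the log2(FPKM + 1) scale was 8.95 with the zero, against a median of 1.85 among the 200 genes nearest in mean level, 190 of which had a smaller one. The span of PSMB9 itself, 123.16 to 493.65 FPKM in all 4 other libraries, held 188 genes. PSMB9, which lies in this span by definition, was the 1 listed at 0 under the heart label. The same limits were then set on the other 4 libraries of each label. This gave 0 of 169 genes listed at 0 under the brain label and 0 of 180 under the lung label. Under the skin label 2 of 197 (CNPY2 and UBE2B) were at 0, and under the limb label 3 of 172 (MRPL50, SYNJ2BP and UQCRC2). Over the wider class of 938 genes with a mean of 100 to 500 FPKM in the other 4, 3.73% were listed at 0 under the heart label. The span was drawn from the values of PSMB9 after they were seen, so it cannot show how rare such a zero is. The number of reads behind these values is not known.

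A gene was called depleted in a library when each of the other 4 reached 10 FPKM and 4 times its own value after adding 1, and enriched when it reached 10 FPKM and 4 times the highest of the other 4 on that scale. PSMB9 under the heart label was the 1 depleted call among the 10 genes, 7 of which were testable there. Of all genes testable in that library 4.27% were called depleted, and 8.19% of the testable values over the 5 libraries. No gene of the set was called enriched in any library, where 8.52% of all testable values were. In a library 6 to 9 genes of the set were testable for enrichment and 6 or 7 for depletion. With a ratio of 2 the calls numbered 4, ERAP1 being enriched under the brain label and TAP1 and TAP2 under the limb label. Without the limb-labelled library in the reference, ERAP1 joined PSMB9, making 2 calls. Without the heart-labelled library PSMB9 had no call and TAP1 under the limb label was called. The share of all genes called was not taken at these other settings, so no such share stands beside these counts.

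How much of each catalytic position was taken by the inducible gene was read from the pairs of subunits. PSMB5, PSMB6 and PSMB7, which are made in nearly all cells, were above 0 in all 5 libraries, with ratios of the highest to the lowest value of 1.56, 1.98 and 2.31. PSMB5 stood at 378 to 592 FPKM, PSMB6 at 707 to 1403 FPKM and PSMB7 at 259 to 598 FPKM. In every library each constitutive gene was above its inducible partner.

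PSMB8 made up 45.5% of the summed FPKM of PSMB8 and PSMB5 under the brain label, 34.98% under the skin label, 29.5% under the limb label, 19.1% under the lung label and 18.8% under the heart label. PSMB10 made up 47.0% of its pair with PSMB7 under the brain label, 37.9% under the limb label, 34.1% under the lung label, 17.5% under the skin label and 17.2% under the heart label. For PSMB9 with PSMB6 the share was 26.9% under the brain label, 19.6% under the lung label, 15.7% under the limb label and 14.8% under the skin label. The brain-labelled library was thus highest and the heart-labelled lowest for each of the 3 pairs, while the order of the libraries between them changed from pair to pair. For PSMB8 the heart-labelled library was only just below the lung-labelled one, and for PSMB10 only just below the skin-labelled one. Summed over the 3 pairs, the inducible genes held 35.1% under the brain label, 23.9% under the limb label, 23.4% under the lung label, 21.4% under the skin label and 9.41% under the heart label. The heart-labelled sum includes the listed zero of PSMB9 beside PSMB6 at 1025 FPKM. It therefore lies below the 18.8% of PSMB8 and the 17.2% of PSMB10 in that library. These are shares of RNA levels, and proteasome composition was not measured.

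**Figure D2:**
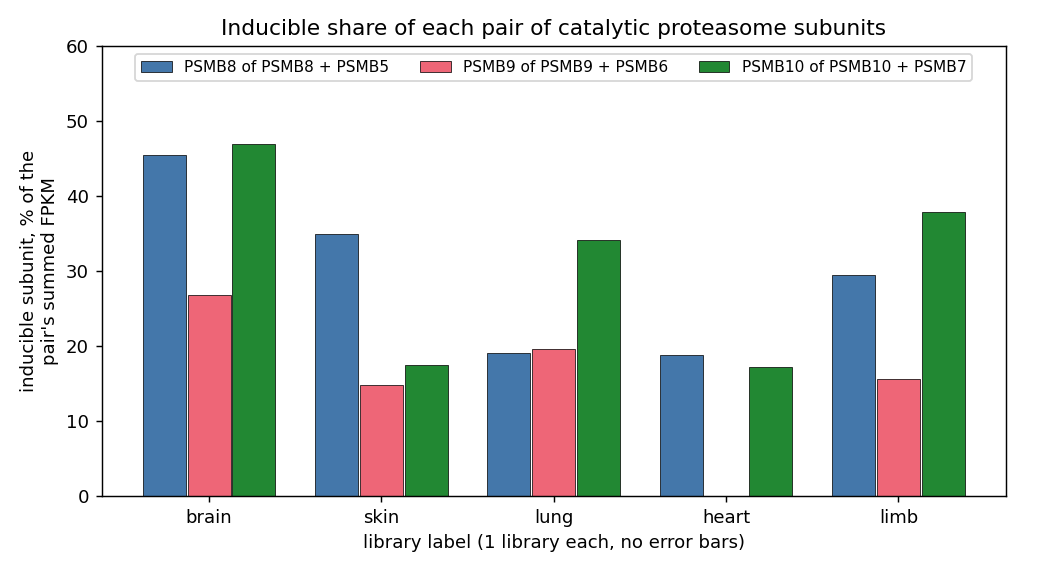
Share of the inducible gene in the summed FPKM of each pair of catalytic proteasome subunits (bars, in percent) by library label. The brain-labelled library has the tallest bar of each pair (45.5%, 26.9% and 47.0%), and the PSMB9 bar of the heart-labelled library is absent because the gene was listed at 0.

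The 11 structural subunits of the 20S core, which form the barrel around the catalytic sites, were above 0 in all 5 libraries. Their sum was lowest under the heart label, at 6854 FPKM, and highest under the skin label, at 13081 FPKM. Under the skin label PSMA7 was at 1669 FPKM and PSMA5 at 2069 FPKM, each its highest value. PSMB1, the most abundant of them by mean, was at 962 to 1842 FPKM. PSMA6 was lowest under the lung label, at 233 FPKM, and PSMB4 lowest under the skin label, at 285 FPKM. Under that label B2M, PSME1 and the low transport and trimming genes TAP1, TAP2 and ERAP1 also had their lowest value.

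The peptide transporter was low in all 5 libraries. TAP1 was at 16.1 FPKM under the limb label, 7.49 FPKM under the heart label and 1.4 FPKM under the lung label, and listed at 0 in the brain- and skin-labelled libraries. TAP2 stood at 11.2 FPKM under the limb label, 4.97 FPKM under the heart label, 3.35 FPKM under the brain label and 0.74 FPKM under the lung label, and at 0 under the skin label. Both subunits were highest under the limb label and second highest under the heart label. In the 3 libraries where both were above 0, TAP1 was 1.44 to 1.89 times TAP2.

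ERAP1, the trimming enzyme, was at 21.3 FPKM under the brain label, 8.65 FPKM under the limb label, 4.48 FPKM under the heart label and 1.34 FPKM under the lung label, and listed at 0 under the skin label. Its relative ERAP2 was above 0 only under the limb label, at 12.4 FPKM, and LNPEP, a related aminopeptidase, only under the lung label, at 0.49 FPKM. Under the skin label TAP1, TAP2, ERAP1, ERAP2 and LNPEP were all listed at 0.

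Such low values rest on few reads. By the spacing of low values in the brain- and heart-labelled libraries, 1 read under the brain label was worth a median of 7.48 FPKM among 276 genes whose ratios lay on small whole numbers, against a median of 61 genes at other offsets. This worth depends on the length of the transcript and is rough. Of genes with a mean of 5 to 10 FPKM in the other 4 libraries, the class that holds TAP1, TAP2 and ERAP1, 64.4% were listed at 0 under the skin label. Under the brain label, where TAP1 was at 0, the share of that class was 43.8%. The zeros of the transporter and of ERAP1 therefore show only that these genes were not detectable at this depth.

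**Figure D3:**
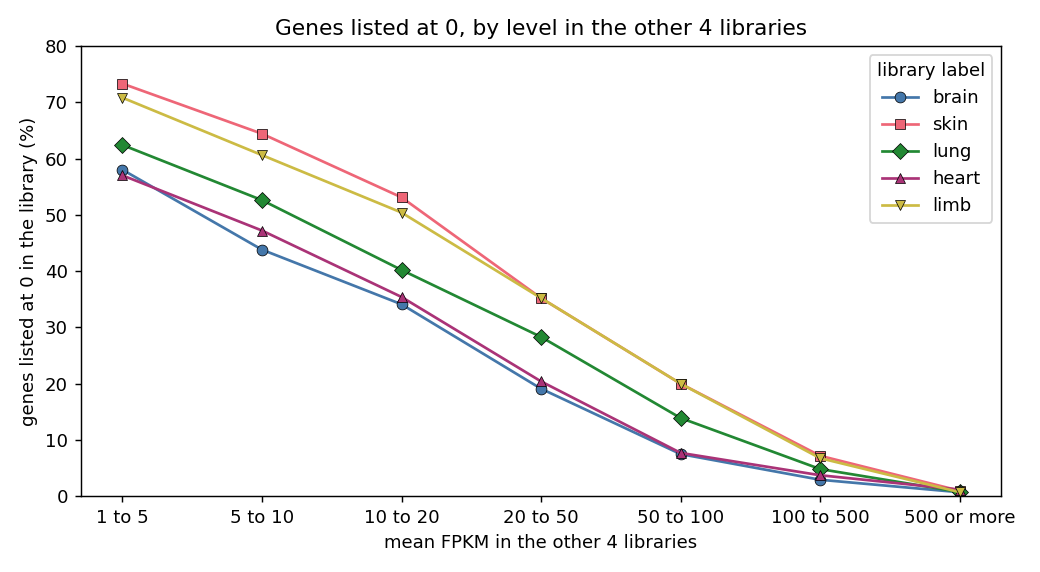
Share of genes listed at 0 in a library (vertical axis, percent) by their mean FPKM in the other 4 libraries (horizontal axis, 7 classes), 1 line per library label. The share is 43.8% to 64.4% at 5 to 10 FPKM and 2.93% to 7.19% at 100 to 500 FPKM, and the skin- and limb-labelled libraries have the most zeros below 20 FPKM.

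Tapasin (TAPBP), which bridges the transporter and the class I heavy chain, had an order unlike that of the other genes. It was at 81.5 FPKM under the lung label, 49.1 FPKM under the skin label, 29.0 FPKM under the brain label, 16.9 FPKM under the heart label and 12.9 FPKM under the limb label. The limb-labelled library, highest for TAP1 and TAP2, was thus the lowest for TAPBP, and the lung-labelled library was 6.34 times it. All 3 of these limb values may rest on few reads. The rough worth of 1 read was 7.48 FPKM under the brain label and was not estimated under the limb label. The range of TAPBP, 2.57 on the log2(FPKM + 1) scale, was below the median of 6.18 among the 200 genes nearest in mean level, many of which were listed at 0 somewhere, and 29 of the 200 had a smaller one. The relative TAPBPL, an editor of class I peptides, was listed at 0 in all 5 libraries.

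In the ARS-UCD2.0 annotation TAP1 lies directly between PSMB8 and PSMB9, and in human cells TAP1 and PSMB9 are known to be read in opposite directions from a shared promoter. The values of these neighbours did not follow the same order. PSMB9 was highest under the brain label, where TAP1 was listed at 0. Under the heart label, where PSMB9 was listed at 0, TAP1 was at 7.49 FPKM, the second highest of its values. Since TAP1 was near the limit of detection, its order between libraries is uncertain.

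Between pairs of libraries a gene was called different when the higher value was at least 10 FPKM and the ratio after adding 1 was at least 4. Of the 82 comparisons in which a gene of the set reached that minimum, over the 10 pairs, 14 were called, or 17.1%, against 48.1% of all such comparisons in the table. The count depended on the threshold, with 41 calls at a ratio of 2 and 5 with a pseudocount of 10. For these 2 counts the share of all comparisons was not taken. The minimum of 10 FPKM is not far above the rough worth of 1 read, 7.48 FPKM under the brain label. B2M, PSMB8, PSMB10, PSME1 and PSME2 had 0 calls in 10 pairs each. PSMB9 had 4, all against the heart-labelled library, and TAPBP had 2, the lung-labelled library being higher than the heart- and limb-labelled ones. TAP1 had 3, TAP2 had 2 and ERAP1 had 3. These last genes passed the minimum in 1 library each, the limb-labelled for TAP1 and TAP2 and the brain-labelled for ERAP1, so only the 4 pairs with that library counted, and there they were compared from their highest value. Among the 1358 genes with a mean of 100 FPKM or more, which include 6 of the set, 13.4% of the comparisons were called, and 4 of the 60 of those 6 genes, all of PSMB9.

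Each library was also set against the mean of the other 4 on the log2(FPKM + 1) scale. The median difference over the 10 genes was 0.99 under the limb label and 0.55 under the brain label, and -0.27 under the heart label, -0.58 under the lung label and -0.66 under the skin label. Over the 5010 genes whose mean reached 10 FPKM the medians were -0.03, 0.36, 0.12, 0.31 and 0.03 in the same order. Under the limb label 9 of the 10 genes were above the mean of the other 4, all but TAPBP, against 49.2% of the 5010 genes. Under the brain label 8 of 10 were above it, all but TAP1 and TAPBP, against 59.96%. In the skin-, lung- and heart-labelled libraries 3 of 10 were above it in each, against 50.4%, 55.9% and 53.4%. TAP1, TAP2 and ERAP1 had means of 4.996, 4.05 and 7.15 FPKM, below the minimum set for the 5010 genes. They enter the medians and counts of the set all the same, and were the 3 above the mean under the heart label. Of the 6 genes above 0 in all 5 libraries, only B2M and PSME2 had a larger difference under the limb label than under the brain label. The medians were not taken over those 6 genes alone.

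The genes above the mean were PSMB8, PSMB9 and TAPBP under the skin label, PSMB9, PSMB10 and TAPBP under the lung label, and TAP1, TAP2 and ERAP1 under the heart label. Zeros lower the mean that a library is set against. PSMB9 under the skin label, at 123.16 FPKM, was the lowest of its values above 0, and its reference held the zero under the heart label. That zero also entered the reference of PSMB9 under the brain, lung and limb labels. Zeros likewise entered the references of TAP1, TAP2 and ERAP1 under the brain, lung, heart and limb labels. Under the limb label these genes differed from the mean of the other 4 by 3.01, 2.23 and 1.23. ERAP1 differed by 2.74 under the brain label. The counts above the mean under the limb and brain labels include such genes. The brain- and limb-labelled libraries held the highest pair of values for 5 of the 10 genes, B2M, PSMB8, PSME1, PSME2 and ERAP1, against 9.94% of the 5010 genes. That count was made after the values were seen, and ERAP1 did not reach the minimum of the 5010 genes. In FPKM the set summed to 7397 under the limb label, 6683 under the brain label, 4048 under the heart label, 3974 under the lung label and 3478 under the skin label. B2M is the largest term of each sum.

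**Figure D4:**
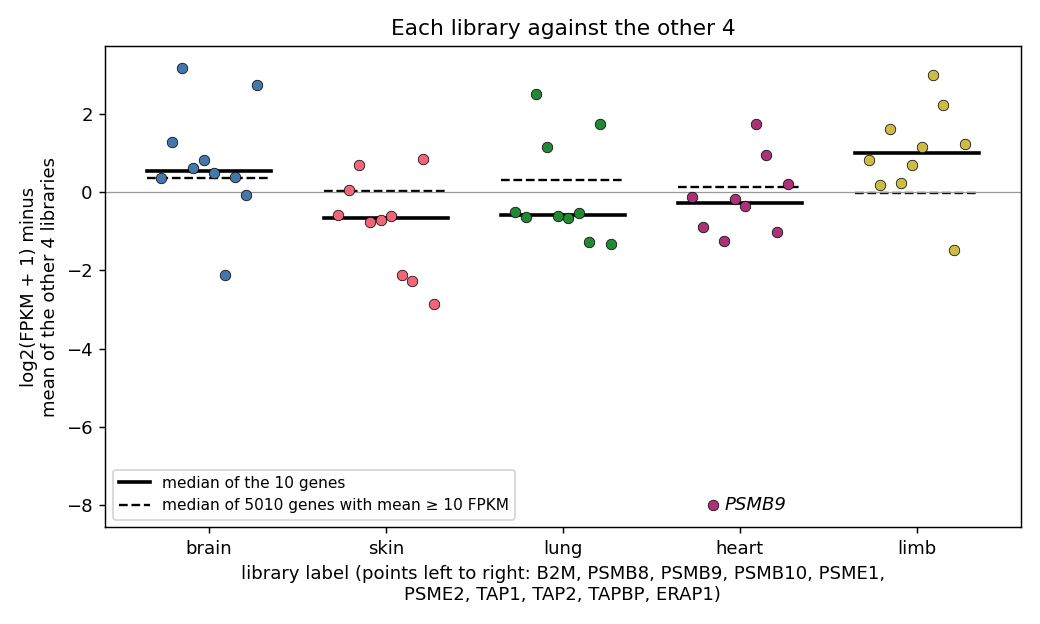
Difference of each of the 10 genes (points) from the mean of the other 4 libraries on the log2(FPKM + 1) scale, by library label, with the median of the 10 genes (solid bar) and of 5010 genes (dashed bar). TAP1, TAP2 and ERAP1 did not reach the mean of 10 FPKM required of the 5010 genes. Their points under the limb label, and that of PSMB9, have a zero in their reference. The solid bar is at 0.99 under the limb label and -0.66 under the skin label, and PSMB9 lies at -8.01 under the heart label.

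Likeness between genes was measured as the Euclidean distance between their centred log2(FPKM + 1) values over the 5 libraries, for genes whose mean reached 10 FPKM. B2M and PSME2 were the closest members, at 0.35, followed by B2M and PSME1 at 0.40 and PSME1 and PSME2 at 0.48. PSMB8 was at 0.998 from PSME1, and PSMB10 at 1.67 from PSMB8. PSMB9 was 6.09 or more from each other gene because of its zero under the heart label.

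Over 4671 named genes, the nearest to B2M were POLR1C, a shared subunit of RNA polymerases I and III, at 0.14, the proteasome lid subunit PSMD7 at 0.22 and the splicing factor SRRM2 at 0.27. The nearest to PSME2 were the translation factor EIF3F at 0.14, EIF4EBP1, a repressor of cap-dependent translation, at 0.26 and the 20S subunit PSMB4 at 0.32. EIF4EBP1 was also the nearest to PSME1, at 0.29, ahead of HMOX2 and CNBP. PSMB8 was nearest to CSNK2B, the regulatory subunit of casein kinase 2, at 0.15, then to EIF6 and TIMM8A. The nearest to PSMB10 were GTF2A2, MEAF6 and RPL23, at 0.45 to 0.52, and to TAPBP PGAM5, STUB1 and MED7, at 0.47 to 0.53. PSMB9 had no close match, with MDK at 1.25, MYL12B at 1.88 and BDH2 at 2.05, all 3 listed at 0 under the heart label. With a pseudocount of 10 in place of 1, 12 of the 21 names remained.

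The class I heavy chains, the partners of B2M that hold the peptide, are a family of near-identical genes, so reads may be split between them and their values are uncertain. The entry named BOLA was at 251 FPKM under the brain label, 169 FPKM under the skin label, 67.7 FPKM under the lung label, 75.3 FPKM under the heart label and 183 FPKM under the limb label. B2M was 11.6 to 33.2 times BOLA, least under the skin label and most under the heart label. JSP.1, another class I gene, was at 122 FPKM under the skin label and 8.29 to 25.3 FPKM in the other 4. The nonclassical gene BOLA-NC1 was at 99.7 FPKM under the limb label and 1.89 to 11.0 FPKM elsewhere. The limb-labelled library was thus high for BOLA-NC1 and B2M and the skin-labelled library for JSP.1, where B2M was lowest.

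Of 7 heavy-chain entries, all were above 0 in at least 1 library and 4 in all 5, the fourth being FCGRT, the neonatal Fc receptor that also pairs with B2M, at 21.2 to 140 FPKM. MIC1, a stress ligand gene, was at 41.0 FPKM under the limb label, 19.9 FPKM under the skin label and 7.89 FPKM under the lung label. MR1, which presents vitamin B metabolites, was above 0 only under the heart label, at 25.01 FPKM, and the iron regulator HFE only under the lung label, at 5.03 FPKM.

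The chaperones that fold and load class I molecules are also used by many other secreted proteins. CALR (calreticulin) was at 160 to 261 FPKM, CANX (calnexin) at 76.0 to 166 FPKM and PDIA3, the oxidoreductase bound to tapasin, at 88.0 to 301 FPKM. PDIA3 and CANX were lowest under the limb label, as TAPBP was, and CALR under the lung label. Of the 15 loading and editing entries, 14 were above 0 in at least 1 library and 8 in all 5. The highest were the translocon subunits SEC61G, at 2073 to 3484 FPKM, and SEC61B, at 454 to 925 FPKM. SEC61A1, the channel itself, ranged from 2.42 FPKM under the skin label to 158 FPKM under the brain label, and the glucosidase subunit GANAB from 0 in the skin- and lung-labelled libraries to 47.6 FPKM under the heart label.

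Class II presentation, which takes peptides from outside the cell, was nearly absent from the listing. Of the 16 class II genes sought, BOLA-DRB3, BOLA-DQA1 and BOLA-DQA2 had no entry of that name. Of 13 class II entries 1 was above 0, the lysosomal thiol reductase IFI30, at 139 FPKM under the brain label, 103 FPKM under the heart label and 59.2 FPKM under the limb label. The class II chain BOLA-DRA, the invariant chain CD74 and the class II activator CIITA were listed at 0 in all 5 libraries.

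Regulators of the set were low and patchy. Of 17 entries, 14 were above 0 in at least 1 library and 2, IRF9 and RELA, in all 5. NLRC5, the known activator of class I genes, IRF8 and the promoter-binding RFX5 were listed at 0 throughout. IRF9, a component of the type I interferon response, was at 70.4 FPKM under the heart label, 52.1 FPKM under the limb label, 22.6 FPKM under the brain label, 20.3 FPKM under the lung label and 7.76 FPKM under the skin label. It was thus highest in the heart- and limb-labelled libraries and lowest under the skin label.

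IRF1, an activator of PSMB9 and TAP1 in other systems, was at 70.1 FPKM under the skin label and 15.3 FPKM under the lung label and at 0 in the other 3. IRF2 was at 13.7 FPKM under the lung label and 18.0 FPKM under the limb label only. STAT2 was at 36.4 FPKM under the skin label and 11.1 FPKM under the brain label only, and STAT3 was at 3.49 to 12.3 FPKM in 4 libraries and 0 under the lung label. IRF1 was thus listed at 0 under the brain label, where PSMB9 was highest, and under the heart label, where PSMB9 was also at 0. The part of IRF1 in the levels of PSMB9 and TAP1 was not tested.

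The RFX complex member RFXANK reached 136 FPKM under the skin label and was at 0 under the limb label, and RFXAP was above 0 only under the lung label, at 8.17 FPKM. The CCAAT-binding subunits differed from each other, NFYC reaching 79.9 FPKM under the skin label, NFYB 36.9 FPKM under the limb label and NFYA 23.6 FPKM under the heart label. CREB1 was at 35.6 FPKM under the lung label and 9.75 FPKM under the limb label. The NF-kappa-B subunit RELA was at 4.41 to 23.1 FPKM, and NFKB1 did not exceed 2.36 FPKM. Most of these values lie where zeros were common.

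Of the 9 interferon receptor and kinase entries 7 were above 0 in at least 1 library. IFNGR2, a chain of the interferon-gamma receptor, was at 303 FPKM under the heart label, 302 FPKM under the limb label, 172 FPKM under the brain label and 90.1 FPKM under the lung label, and at 0 under the skin label. IFNGR1, the other chain, was at 63.3 FPKM under the skin label, 44.3 FPKM under the limb label, 27.8 FPKM under the brain label and 25.3 FPKM under the heart label, and at 0 under the lung label. Both chains were therefore above 0 in the brain-, heart- and limb-labelled libraries. JAK1 was at 2.1 to 14.0 FPKM and never at 0. IFNAR1 reached 13.3 FPKM under the limb label, SOCS1 16.8 FPKM under the heart label and JAK2 6.4 FPKM under the brain label. TYK2 was at 0.61 FPKM under the brain label, and IFNAR2 and SOCS3 were at 0 throughout.

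Interferon-induced antiviral genes were listed for comparison, with 21 of 32 entries above 0 in at least 1 library and 9 in all 5. Among those with a mean of at least 1 FPKM their median difference from the mean of the other 4 was 1.55 under the brain label, 0.66 under the limb label, -0.07 under the heart label, -0.85 under the lung label and -1.75 under the skin label. The 10 antigen presentation genes had 0.55, 0.99, -0.27, -0.58 and -0.66 in that order. The 2 sets of values come from the same libraries and references. Single genes did not share 1 order. IFITM3, a membrane protein that blocks virus entry, was most abundant, its main entry at 2551 to 9293 FPKM. IFI6 was highest under the limb label, at 4758 FPKM, IFITM1 under the heart label, at 3682 FPKM, and the ubiquitin-like ISG15 under the brain label, at 333 FPKM, while IFI27 was above 0 in the brain- and limb-labelled libraries only, at 25.3 and 1784 FPKM. The part of interferon signalling in the levels of the antigen presentation genes was not tested.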

How the data were processed

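RNA sequencing values of 5 cattle libraries were used, 1 per tissue label. Per the submitters' processing notes, bcl2fastq, STAR and RSEM were used with the ARS-UCD1.2 build. No version, annotation or filter is stated there. The table the authors deposited lists 27607 genes, 19856 of them named. Its deposited values were taken as FPKM, since they are not whole and each library sums to more than the fixed total of TPM. The unit itself is not named, and estimated counts that are not whole would also meet these grounds. Read totals are unknown, so no interval or count model was used.

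Ratios were taken after adding 1 FPKM, with a minimum of 10 FPKM and a ratio of 4, and no ratio is given against 0. The members, the lists and the rules were chosen with earlier results of these data known. All 10 genes are named; of the other lists, the regulators, receptors and constitutive catalytic subunits are named, apart from 1 gene that is not reported here. Of each remaining list up to 5 detected genes, or the 3 most abundant and the 2 with the widest range, were to be named, and others mentioned were chosen after their values were seen. For likeness the 3 nearest named genes were taken. All 10 names matched a RefSeq gene table of ARS-UCD2.0, used only for neighbours. Alternatives were other pseudocounts, minimums, ratios, references and 3 rescalings. With 1 library per label, how often the rules give a wrong call in libraries like these was not tested. Python 3.11.15, numpy 2.4.6, pandas 2.3.3 and matplotlib 3.10.9 were used.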

Additional observations from a re-analysis of the deposited data

How the results depend on the processing

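No paired analysis was possible because each label has 1 library, and for the same reason no replicate could be left out. Over the 5 libraries, the 1 call against the other 4 (PSMB9) became 4 with a ratio of 2, 3 with the mean of the other 4 as reference (ERAP1 and TAP1 joining) and 2 without the limb-labelled library. The 14 calls between pairs became 5 with a pseudocount of 10, 9 with a minimum of 20 FPKM, 41 with a ratio of 2 and 9 with a ratio of 8. The share of all genes called was not taken under these alternatives, so the counts describe the 10 genes only. The median range of the 10 genes, 2.25 on the log2 scale, was 1.54 with a pseudocount of 10, and 12 of the 21 nearest genes remained with it. Rescaling by the median ratio moved the heart-labelled library up by 0.14 on the log2 scale relative to the mean of the 5. After this rescaling the median difference of the set there was -0.10, against -0.27 in the values as deposited. Under all 3 rescalings each of the 10 genes kept its highest and its lowest library. The median difference of the set kept its sign in every library under the alternatives run. It ranged from 0.41 to 0.91 in the brain-labelled, -0.97 to -0.48 in the skin-labelled, -0.77 to -0.36 in the lung-labelled, -0.54 to -0.04 in the heart-labelled and 0.64 to 1.169 in the limb-labelled library. The value nearest to 0 came without the limb-labelled library in the reference for the heart-, lung- and skin-labelled libraries, and without the skin-labelled one for the brain- and limb-labelled libraries.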

Other observations

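The chaperones that assemble proteasomes were present beside the subunits described above. POMP, which is needed to build new 20S cores and especially those with inducible subunits, was at 715 FPKM under the brain label, 775 FPKM under the skin label, 1263 FPKM under the lung label, 540 FPKM under the heart label and 826 FPKM under the limb label. It was lowest in the heart-labelled library, where PSMB8 and PSMB10 were also lowest, and highest in the lung-labelled one, where PSMB10 was highest. Other values went differently. Under the brain label, where PSMB8 and PSMB9 were highest, POMP was second lowest, and under the lung label PSMB8 was second lowest. The sum of the structural 20S subunits was also lowest under the heart label, at 6854 FPKM. PSMG2 was at 818 FPKM under the skin label and 150 FPKM under the heart label, its extremes, and PSMG1 at 548 FPKM under the lung label and 125 FPKM under the limb label. Of the alternative activators, PSME3 was at 30.0 to 81.1 FPKM and PSME4 at 0 to 15.4 FPKM, far below PSME1 and PSME2. PSMF1, an inhibitor of the proteasome, was at 102 FPKM under the brain label, below 30 FPKM in the lung- and heart-labelled and listed at 0 in the other 2.

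Of 8 co-stimulation and checkpoint entries 2 were above 0. CD58, an adhesion ligand for T cells, was at 18.1 FPKM under the lung label and 21.6 FPKM under the heart label, and CD276 at 0.87 and 14.6 FPKM in the same libraries. CD274 (PD-L1) and ICAM1 were listed at 0 in all 5 libraries.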
